A study of Homo sapiens with 6 samples.

Results

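The *EVA1C* and SLIT-ROBO gene set held the rows of the expression table named *EVA1C*, *EVA1A*, *EVA1B*, *SLIT1*, *SLIT2*, *SLIT3*, *ROBO1*, *ROBO2*, *ROBO3* and *SRGAP1*. Of these 10 names, 9 were among the 17471 genes listed. *ROBO2* was not analysed here. The set was chosen by the measured level of *EVA1C* in these libraries, which was known to differ between the groups. The difference in *EVA1C* is therefore given as a description with no test. The other members were looked up by their gene family or their role in the pathway, with earlier results of these data known.

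SLIT proteins are large secreted ligands that repel or steer growing axons and migrating cells. They bind ROBO receptors, single-pass membrane proteins of the immunoglobulin superfamily, and heparan sulfate chains on the cell surface hold ligand and receptor together. Inside the cell, ROBO receptors recruit adaptors and GTPase-activating proteins such as SRGAP1 that act on the actin cytoskeleton. EVA1C is a membrane protein with lectin-like domains whose nematode counterpart is a SLIT receptor that works with the ROBO protein of the worm. SLIT and ROBO genes are also expressed in the endometrium.

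RNA was sequenced from AN3CA, a human cell line established from an endometrial cancer, in 6 libraries. All cells carried a lentiviral hairpin vector and were selected with puromycin. The 3 shEV libraries came from cells with the empty vector, and the 3 shPAX2 libraries from cells with 1 hairpin against *PAX2*, a developmental transcription factor. Elsewhere in the study's text the control of this line is named scrambled. The study states in general that its in vitro experiments were repeated 3 times. Nothing says that these libraries came from separate cultures, so p-values measure the spread between these samples, which may be technical. A single hairpin cannot separate loss of *PAX2* from other effects of that hairpin.

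Levels are given in TPM, read numbers divided by the length of the gene and by the total of the library. Whole reads recovered from the TPM values summed to between 10730909 and 18221859 in shEV and between 19422615 and 29405787 in shPAX2, so every shPAX2 library was the deeper. *PAX2* stood at 4.03, 3.66 and 2.74 TPM in shEV and at 0.916, 0.723 and 1.17 TPM in shPAX2, which left 26.9% of the shEV mean (log2 fold change −1.47 ± 0.18 SE, adjusted p = 0.000294 by limma). Although the labels call the cells epithelial, 8 of the 9 listed epithelial markers stayed under 1 TPM in every library, *CDH1* and *EPCAM* among them, and *KRT18* gave nearly all of the summed level of 11 to 18 TPM. The summed mesenchymal markers lay at 4980 to 5397 TPM in shEV and 4449 to 4637 TPM in shPAX2, with *VIM* the highest. Of the 10 listed, 4 stayed under 1 TPM in every library, *CDH2* and *FN1* among them. The collagen genes moved both ways. *COL1A2* lay at 809 to 855 TPM in shEV and 360 to 439 TPM in shPAX2, and *COL3A1* at 25.8 to 41.2 TPM and 236 to 248 TPM. Summed neuronal markers lay at 172 to 180 TPM in shEV and 248 to 265 TPM in shPAX2, mainly through *TUBB3* and *SYP*, while the neuronal nuclear marker *RBFOX3* reached at most 0.0422 TPM. Whether this shift had a part in the results on guidance genes was not tested. Endothelial markers summed to at most 3.51 TPM and leukocyte markers to at most 2.73 TPM.

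The EVA1 genes are shown first by the sequence that precedes their starts, since the family holds *EVA1C* and *EVA1A*, whose levels parted most among the members, and *EVA1B*, whose level did not pass the test. The 250 bases before annotated starts were read from GRCh37, the build of the deposited values. Starts were located with the RefSeq promoter table, except that of the first coding *EVA1C* transcript, which came from the GENCODE annotation. Capitals mark GTCACGC, or its reverse complement GCGTGAC, the core of the sequence that PAX2 and its close relatives bind. *EVA1C* lies on the plus strand, chr21:33784314-33887707 in the annotation, with a RefSeq start further out. *EVA1A* and *EVA1B* lie on the minus strand, chr2:75696428-75796848 and chr1:36787631-36789755.
EVA1C, outermost start, chr21:33783781-33784030, plus strand: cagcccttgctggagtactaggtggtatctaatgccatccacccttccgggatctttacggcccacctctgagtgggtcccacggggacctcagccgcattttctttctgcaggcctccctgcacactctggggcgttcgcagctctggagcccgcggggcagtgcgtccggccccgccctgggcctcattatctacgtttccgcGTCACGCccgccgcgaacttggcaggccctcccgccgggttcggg
EVA1C, first coding transcript, chr21:33784495-33784744, plus strand: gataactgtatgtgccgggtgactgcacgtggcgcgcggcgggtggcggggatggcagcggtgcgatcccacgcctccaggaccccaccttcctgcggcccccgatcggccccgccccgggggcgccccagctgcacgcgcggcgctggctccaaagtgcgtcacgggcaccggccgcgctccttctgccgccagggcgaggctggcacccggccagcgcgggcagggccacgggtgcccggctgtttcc
EVA1A, start with most CpG, chr2:75788066-75788315, minus strand: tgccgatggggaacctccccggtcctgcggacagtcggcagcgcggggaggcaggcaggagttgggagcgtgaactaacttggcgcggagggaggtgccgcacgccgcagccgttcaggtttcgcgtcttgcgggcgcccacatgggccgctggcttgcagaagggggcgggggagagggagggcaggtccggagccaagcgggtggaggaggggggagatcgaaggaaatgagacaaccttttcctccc
EVA1B, outermost start, chr1:36789756-36790005, minus strand: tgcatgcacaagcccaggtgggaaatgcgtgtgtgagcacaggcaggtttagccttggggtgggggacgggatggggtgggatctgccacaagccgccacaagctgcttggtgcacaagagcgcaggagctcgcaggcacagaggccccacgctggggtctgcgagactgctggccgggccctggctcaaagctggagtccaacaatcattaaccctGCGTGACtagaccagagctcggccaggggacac

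All 4 windows lie outside the annotated UTRs of their own gene, and the second *EVA1C* window overlaps 2 exons of non-coding transcripts. Exons and UTRs of other genes were not checked. On the opposite strand, *SH3D21* spans the *EVA1B* window and the readthrough gene *CFAP298-TCP10L* spans both *EVA1C* windows. The outer *EVA1C* window held 21 CpG dinucleotides and 66% G and C, and the inner one 32 CpG and 76.4% G and C. As many CpG as in the inner window were found in 9.52% of the 35116 promoter windows of that length, against 30.2% for the outer one. The *EVA1A* window, chosen for its CpG, held 22, where other RefSeq windows of *EVA1A* held 4 and 3. The *EVA1B* window, chosen because it holds GCGTGAC, had 10 CpG, where the other RefSeq window of *EVA1B* had 20. The CpG counts of these windows therefore do not compare the genes. GTCACGC began 45 bases before the outer *EVA1C* start, and GCGTGAC began 33 bases before the *EVA1B* start. Both strands were searched for GTCACGC and GTCATGC, which were found in 3.59% of all windows. Of the 18 RefSeq promoter windows of the 10 members, 2 held a match, 1 of *EVA1C*, whose level differed widely, and 1 of *EVA1B*, whose level did not pass the test. Of the 18 windows, 17 were found letter for letter in GRCh37. The exception was the outer *EVA1C* window, so the GRCh37 stretch shown differs slightly from it. GTCACGC began 45 bases before the start in both. The inner *EVA1C* window shown was not among the 18 and held no match. The windows of the other 8 members held none of these letters.

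*EVA1C* was close to undetected in the control cells and one of the better expressed members after *PAX2* knockdown. The shEV libraries gave 0.0964, 0.117 and 0.0573 TPM for it, from 1, 2 and 1 reads. The shPAX2 libraries gave 25.5, 25.2 and 26 TPM, from 753, 657 and 491 reads. The groups were far apart, and the coefficient of variation of the shPAX2 libraries, 1.64%, was no larger than the 4.04% that counting gives. The pooled reads, 4 against 1901, gave a depth-corrected ratio of 287, with an exact 95% interval of 112 to 1053 that covers counting error only. On the log2(TPM + 0.5) scale the difference was 5.47 ± 0.11 SE, and on recovered reads it was 7.76, since the pseudocount caps a fold taken against so low a level. *EVA1C* ranked above 16.2% of the listed genes in shEV and above 68.0% in shPAX2. In a bulk sample, more cells expressing a gene and more RNA per cell cannot be told apart, and the same holds for a decrease.

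*EVA1A*, a relative of *EVA1C* known for promoting autophagy and programmed cell death, went the other way. Its shEV levels were 1.59, 1.94 and 1.69 TPM, on 18, 36 and 32 reads. In shPAX2 *EVA1A* was listed at 0, 0.282 and 0.244 TPM, from 0, 8 and 5 reads, where 3 reads in the first library would be 0.0933 TPM. Every shPAX2 library was below every shEV library, and *EVA1A* fell by 1.75 ± 0.21 SE on the log2(TPM + 0.5) scale (adjusted p = 0.000268). The pooled reads gave a level 11-fold higher in shEV, with an exact 95% interval of 6.1 to 21.5, and the log2 fold change was −2.96 with a pseudocount of 0.1 and −4.16 on recovered reads. *EVA1A* was the 1 member besides *EVA1C* past the threshold, which asks for a log2 fold change of 1 or more in size at an adjusted p below 0.05, where 3.11% of the 13163 genes tested were past it as lower and 1.43% as higher, 4.54% in all. *EVA1C* and *EVA1A* each passed the filter on low values, 0.5 TPM in at least 3 libraries, through 1 group alone, so both had to differ.

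*EVA1B*, the third gene of the family and the least described, showed no difference that passed the test. Its levels were 10.2, 7.73 and 5.99 TPM in shEV and 5.58, 8.09 and 6.81 TPM in shPAX2. The groups overlapped, and the log2 difference was −0.20 ± 0.20 SE (adjusted p = 0.469), with the sign turning to 0.019 under quantile normalization. Its coefficients of variation, 26.8% in shEV and 18.4% in shPAX2, exceeded the 12.7% and 10.7% that counting gives, so its spread was wider than depth alone sets. *EVA1B* overlaps *SH3D21* on the opposite strand, and whether reads were counted by strand is not stated in the sources used here.

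**Figure D1:**
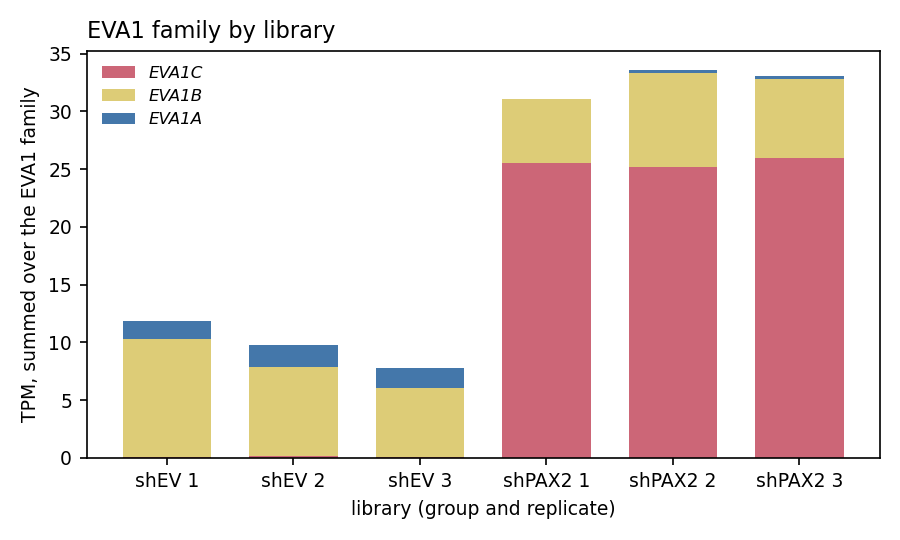
Stacked bars give the TPM of EVA1C, EVA1B and EVA1A in each of the 6 libraries, 3 shEV and 3 shPAX2, on a linear axis from 0. The summed level lies between 7.73 and 11.9 TPM in shEV, where EVA1B makes up 77.5% to 85.8% and EVA1A most of the rest, and between 31 and 33.6 TPM in shPAX2, mostly EVA1C.

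The make-up of the family differed between the groups. The summed EVA1 level was 11.9, 9.78 and 7.73 TPM in shEV and 31, 33.6 and 33.1 TPM in shPAX2. *EVA1B* made up 80.8% ± 4.46 (SD, n = 3) of that sum in shEV and 20.9% ± 3.07 (SD, n = 3) in shPAX2. The share of *EVA1A* went from 18.3% to 0.526%, and that of *EVA1C* from 0.915% to 78.6%. Since *EVA1C* was chosen for its difference, these shares are a description.

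The ligands were at the edge of detection. *SLIT1* stood at 0.188, 0.157 and 0.377 TPM in shEV and at 0.189, 0.14 and 0.129 TPM in shPAX2, from 8 to 27 reads per library. The groups overlapped, no *SLIT* gene reached the filter for testing, and without the filter *SLIT1* gave an adjusted p of 0.341. Pooled *SLIT1* reads gave a ratio of 0.629, with an exact 95% counting interval of 0.411 to 0.964, but shEV replicate 3 alone held 27 of the 46 shEV reads. Without that library, an alternative chosen after seeing the data, the ratio was 0.931, with an interval of 0.537 to 1.68. *SLIT1* shares its strand with the readthrough gene *ARHGAP19-SLIT1*, which is also listed, so the split of reads between them is uncertain.

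*SLIT2* and *SLIT3* were lower still. *SLIT2* was listed at 0, 0.0457 and 0 TPM in shEV and at 0, 0 and 0.0414 TPM in shPAX2. *SLIT3* was listed at 0 in all shEV libraries, where 3 reads would be 0.0574, 0.0349 and 0.0341 TPM, and at 0.00671, 0 and 0 TPM in shPAX2, a single read. No difference in either was detectable at this depth, and without the filter their adjusted p-values were 0.97 and 0.929. The microRNA genes inside them, *MIR218-1*, *MIR218-2* and *MIR585*, were not analysed here. All 3 ligands together summed to 0.256 ± 0.105 TPM (SD, n = 3) in shEV and 0.169 ± 0.028 TPM (SD, n = 3) in shPAX2.

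Both listed receptors were expressed, and both were lower after knockdown. *ROBO1*, the receptor that mediates SLIT repulsion in many tissues, stood at 40, 42.2 and 42.7 TPM in shEV and at 31.1, 29.4 and 29.8 TPM in shPAX2. The groups did not overlap, which was true of 54.9% of all genes tested. *ROBO1* fell by 0.46 ± 0.058 SE on the log2 scale to 72.3% of the shEV mean (adjusted p = 0.000363). Median-of-ratios scaling, which moved the median of all genes from −0.10 to −0.00018, left a decrease of 0.36 with an adjusted p of 0.00182.

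*ROBO3*, a divergent receptor that lets commissural axons cross the midline and binds NELL2 rather than SLIT, stood at 6.58, 6.16 and 6.59 TPM in shEV. In shPAX2 it stood at 5.29, 4.33 and 4.07 TPM, and every shPAX2 value lay below every shEV value. *ROBO3* fell by 0.46 ± 0.11 SE on the log2 scale (adjusted p = 0.00982) to 70.9% of the shEV mean, and under quantile normalization the log2 difference was −0.23 with an adjusted p of 0.101. The ratio of *ROBO1* to *ROBO3* in TPM was 6.47 ± 0.393 (SD, n = 3) in shEV and 6.66 ± 0.728 (SD, n = 3) in shPAX2, so the groups overlapped in the balance of the receptors.

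*SRGAP1*, the GTPase-activating protein that links ROBO1 to CDC42, stood at 1.71, 2.6 and 2.44 TPM in shEV and at 1.26, 1.23 and 1.11 TPM in shPAX2. Its groups did not overlap either, as in 54.9% of all genes tested. *SRGAP1* fell by 0.68 ± 0.16 SE on the log2 scale (adjusted p = 0.00925) to 53.2% of the shEV mean, and under quantile normalization the log2 difference was −0.42 with an adjusted p of 0.0713.

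**Figure D2:**
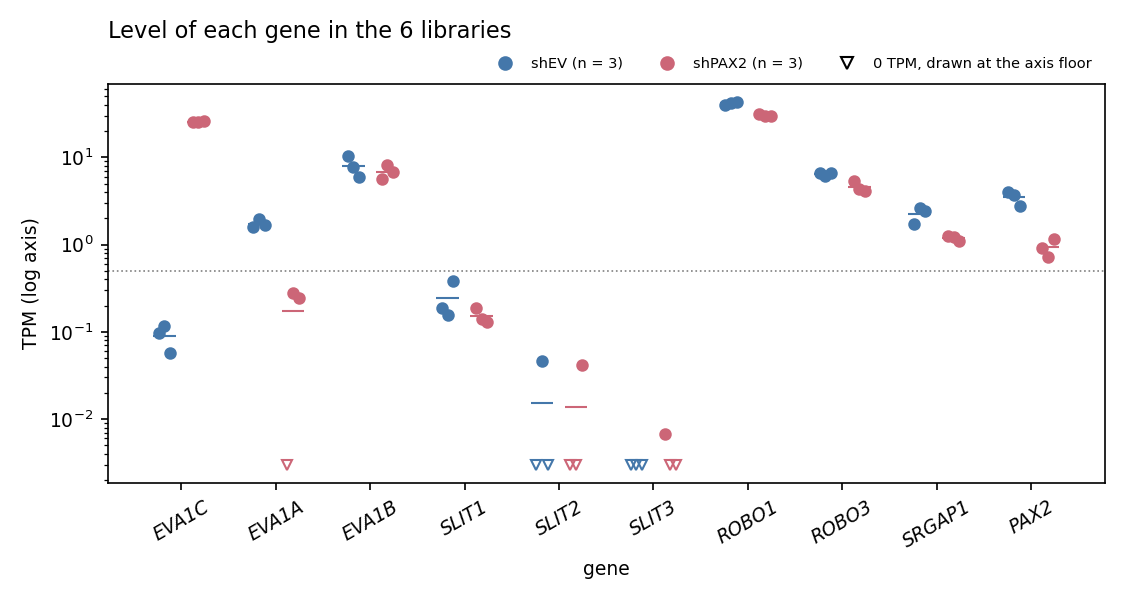
Points give the TPM of each member and of PAX2 in each library on a log axis, short lines the group means, open triangles values of 0 drawn at the axis floor, and the dotted line the filter of 0.5 TPM. EVA1C is the member with shPAX2 above shEV in full, while EVA1A, ROBO1, ROBO3, SRGAP1 and PAX2 lie below without overlap.

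Of the other 9 members, 8 were listed and 5 passed the filter. Counting by the adjusted p alone, at 0.05, 4 of the 5 were lower and 0 were higher by limma, and 0 were higher at an unadjusted p under 0.05 or by voom, where 30.5% of all genes tested were lower, 12.2% higher and 42.8% either. The lean to lower calls over all genes depended on the scaling, with 19.9% lower and 21.2% higher under median-of-ratios scaling and 18.9% lower and 18% higher under quantile normalization. The same 4 were the members whose groups did not overlap, as in 54.9% of all genes tested. *EVA1A*, 1 of the 4, met the filter on low values through shEV alone, so it had to differ. The median log2 difference of the 5 was −0.46, against −0.10 for all genes tested, and these counts cover only the members expressed above the filter. An exact permutation test of 3 against 3 libraries cannot go below p = 0.1 for a single gene, so these calls rest on limma's variance shared across genes.

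**Figure D3:**
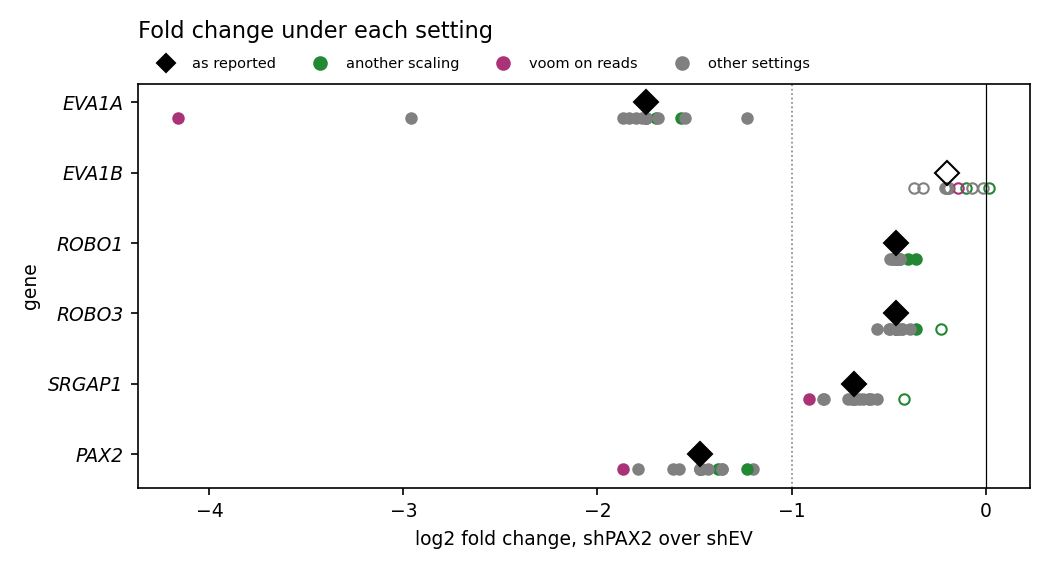
Log2 fold changes, shPAX2 over shEV, of the tested members other than EVA1C and of PAX2, with the reported value as a diamond and each of 15 alternatives as a circle, filled where the adjusted p is under 0.05. ROBO3 and SRGAP1 have open circles under quantile normalization, and EVA1A spreads from −4.16 on recovered reads to −1.23.

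The order of levels within a group differed mainly by the place of *EVA1C*. In shEV the order was *ROBO1* at 41.6 TPM, then *EVA1B* and *ROBO3*, whose ranges overlapped, then *SRGAP1* and *EVA1A*, which also overlapped, then *SLIT1*, *EVA1C*, *SLIT2* and *SLIT3*. In shPAX2 it was *ROBO1* at 30.1 TPM, *EVA1C* at 25.6 TPM, then *EVA1B*, *ROBO3* and *SRGAP1*, then *EVA1A* and *SLIT1*, whose ranges overlapped, and last *SLIT2* and *SLIT3*, which overlapped in both groups. *EVA1C* thus moved from a TPM ratio to *ROBO1* of 0.00217 to one of 0.849.

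The other ligands and receptors tied to the pathway, among them netrins, FLRT proteins and NELL2, moved in both directions. Of 20 named, 15 were listed and 7 tested. Past the threshold were 1 higher and 2 lower, where 1.43% of all genes tested were higher and 3.11% lower. At an adjusted p alone 1 was higher and 4 lower, where 12.2% of all genes tested were higher, 30.5% lower and 42.8% either. *NELL2*, the secreted ligand of *ROBO3*, stood at 1.41, 2.59 and 2.2 TPM in shEV and at 0.108, 0.123 and 0.169 TPM in shPAX2 (log2 fold change −1.99 ± 0.21 SE, adjusted p = 0.000121). Both *NELL2* and its receptor were lower, the receptor by a smaller fold. *NTN1*, the axon attractant netrin-1, stood at 5.32, 5.7 and 5.62 TPM in shEV and fell to 2.37, 1.57 and 1.89 TPM (log2 fold change −1.32, adjusted p = 0.000125). *UNC5B*, a repulsive netrin receptor, rose from 9.08, 8 and 9.06 TPM to 18.5, 24.7 and 25.3 TPM (log2 fold change 1.33, adjusted p = 6.9e-05). In all 3 genes the groups did not overlap, as in 54.9% of all genes tested, and *NELL2* met the filter on low values through shEV alone, so it had to differ. *NEO1*, a netrin and RGM receptor named after its values were seen, fell from a mean of 28.6 to 15.5 TPM (log2 fold change −0.86).

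Genes of the cytoplasmic machinery that ROBO receptors engage, from adaptors to kinases and actin regulators, gave 0 calls past the threshold by limma or by voom. By limma, 4.54% of all genes tested were past it. Of 27 named, 26 were listed and all 26 tested. At an unadjusted p under 0.05, 3 were higher and 13 lower. At an adjusted p under 0.05, 3 were higher and 11 lower, where 12.2% of all genes tested were higher and 30.5% lower. Under median-of-ratios scaling this became 6 higher and 5 lower, so the balance of directions depends on the scaling. Genes of this list other than the members were named after their values were seen. The log2 differences ran from −0.49 in *MYO9B*, a GTPase-activating protein that binds ROBO1, to 0.56 in *CAP2*, an actin regulator on chromosome 6, where the median of the tested genes was 0.39. The GTPases at the end of the pathway did not pass the test in this fit, with log2 differences of 0.10 for *RHOA*, 0.059 for *RAC1* and 0.047 for *CDC42*. Under median-of-ratios scaling *RHOA* (0.21, adjusted p = 0.0108) and *RAC1* (0.17, adjusted p = 0.0322) passed as higher, and *RHOA* also passed by voom on recovered reads (adjusted p = 0.0471). *SRGAP2* and *SRGAP3*, the relatives of *SRGAP1*, gave −0.36 (adjusted p = 0.00289) and −0.47 (adjusted p = 0.0378). *SRGAP2* has near-identical copies in the human genome, so its reads are uncertain, and *SRGAP3* lost its call under 8 of 15 alternatives.

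Heparan sulfate proteoglycans carry the chains that SLIT and ROBO bind. Of 12 core protein genes listed, 10 were tested, with 2 past the threshold, both lower, as were 3.11% of all genes tested. At an adjusted p under 0.05, 1 was higher and 6 lower, where 12.2% of all genes tested were higher, 30.5% lower and 42.8% either. The median log2 difference of the list was −0.51. Quantile normalization gave 1 higher and 4 lower, with a median of −0.29. *SDC2*, the syndecan-2 core protein, stood at 4.33, 4.03 and 4.67 TPM in shEV and at 0.075, 0.128 and 0.0588 TPM in shPAX2 (log2 fold change −3.04, adjusted p = 1.35e-06). *AGRN*, the basement membrane proteoglycan agrin, fell from 28.8, 28.2 and 25.6 TPM to 13.4, 13 and 10 TPM (log2 fold change −1.16, adjusted p = 7.5e-05). Both genes separated the groups in full, as did 54.9% of all genes tested. *SDC2* met the filter through shEV alone, so it had to differ, and on recovered reads *SDC2* gave −5.48 and *NELL2* −3.92.

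The enzymes that build and trim heparan sulfate mostly did not pass the test, as was true of most genes tested. Of 24 named, 18 were listed and 11 tested. At an adjusted p of 0.05, 8 of the 11 did not pass, where 42.8% of all genes tested passed. *HS6ST2*, a 6-O-sulfotransferase, was the 1 gene past the threshold, where 4.54% of all genes tested were past it. It stood at 0.979, 0.595 and 0.8 TPM in shEV and 0.0286, 0.13 and 0.135 TPM in shPAX2 (log2 fold change −1.11, adjusted p = 0.00237). *HS6ST2* met the filter through shEV alone, so it had to differ, and at these low levels its place past the fold threshold depended on the pseudocount, with −0.70 as the smallest and −3.15 as the largest *HS6ST2* difference over the alternatives. The median of the list was −0.051, and it turned to 0.055 under median-of-ratios scaling.

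**Figure D4:**
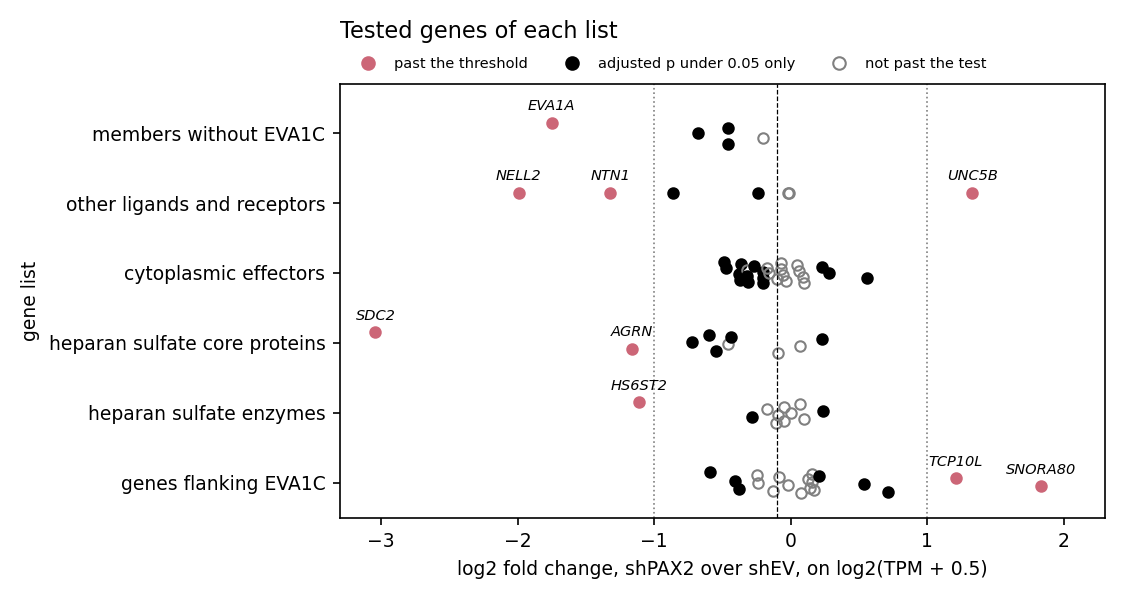
Each point is a tested gene, its log2 fold change on the horizontal axis and its list on the vertical axis, red past the threshold, black at an adjusted p under 0.05 alone and open grey otherwise. The dashed line is the median of all genes tested, −0.10, and dotted lines mark the fold threshold. SDC2 at −3.04 and SNORA80 at 1.83 are the outermost points.

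Genes around *EVA1C* on chromosome 21 were examined because its level differed so widely. All 23 listed genes whose starts lay within 1 Mb of it were taken, and 19 were tested. Past the threshold were 2, both higher, as were 1.43% of all genes tested. At an adjusted p under 0.05 there were 5 higher and 3 lower, or 9 higher and 2 lower under median-of-ratios scaling. The 8 of 19 called in either direction compare with 42.8% of all genes tested, so that share was near the background. By direction, 12.2% of all genes tested were higher and 30.5% lower. Under median-of-ratios scaling these shares were 21.2% and 19.9%, so calls among the neighbours leaned to higher in both fits. The higher calls were not all from separate genes. *SNORA80* lies within *URB1*. The readthrough gene *CFAP298-TCP10L*, chr21:33774820-33985175 on the minus strand, spans *TCP10L* and *C21orf59* as well as *EVA1C*, and it is not listed. Whether the region as a whole was higher was not tested. The median log2 difference of the 19 was 0.13, against −0.074 for the 120 genes tested on chromosome 21. The largest log2 difference among them was 1.83, against 5.47 for *EVA1C* itself.

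*TCP10L*, which lies partly inside *EVA1C* on the opposite strand at chr21:33870277-33959683, was past the threshold. It stood at 0, 0.252 and 0.123 TPM in shEV and at 0.799, 1.05 and 0.95 TPM in shPAX2 (log2 fold change 1.21 ± 0.21 SE, adjusted p = 0.00182), from 9 and 96 reads in all. *TCP10L* met the filter through shPAX2 alone, so it had to differ. On recovered reads the fold change of *TCP10L* was 2.96, and with a pseudocount of 1 it fell under the fold threshold. Because counting by strand is not stated, reads of *EVA1C* and *TCP10L* in their shared stretch cannot be told apart. *SNORA80*, a small nucleolar RNA gene within *URB1*, stood at 8.22, 12.5 and 8.96 TPM in shEV and at 43.2, 42 and 25.6 TPM in shPAX2 (log2 fold change 1.83, adjusted p = 0.00462). Its reads and those of *URB1*, on the same strand, cannot be told apart, and the related gene *SNORA80B* is also listed.

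Of the other neighbours, *URB1*, a ribosome biogenesis gene, *C21orf59* and *C21orf119* were named after their values were seen. *URB1* has its start at −19 kb from *EVA1C* and went from 24.8, 23.8 and 23.5 TPM to 34.7, 43.1 and 41.1 TPM (log2 fold change 0.71, adjusted p = 0.00025). *C21orf59*, with its start 97.2 kb beyond *EVA1C*, went from 96.1, 87 and 92 TPM to 127, 136 and 137 TPM (log2 fold change 0.54, adjusted p = 0.000208). *C21orf119*, with its start at −18.9 kb from *EVA1C* and next to *URB1*, was lower in shPAX2 (log2 fold change −0.41), so the nearest genes did not share 1 direction.

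**Figure D5:**
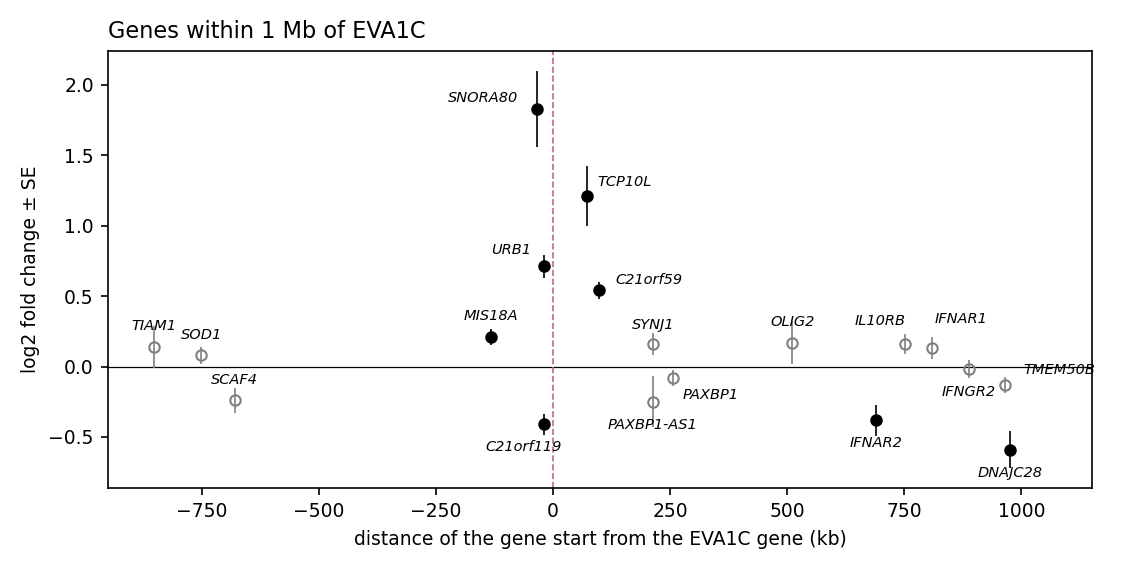
Log2 fold change, shPAX2 over shEV, with its standard error for the 19 tested genes within 1 Mb of EVA1C, against the distance of each gene's start from EVA1C in kb, filled where the adjusted p is under 0.05. SNORA80, TCP10L, URB1 and C21orf59 lie highest, and C21orf119 lies below 0.

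The genes most like each member were ranked by Pearson's r of log2(TPM + 0.5) over the 6 libraries, which for a gene that separates the groups mostly ranks other genes that do so. For *EVA1C* these were *AFF3* (r = 0.9996), *UNC13A*, *ELOVL4*, *SEZ6L2* and *JPH3*, and 130 genes in all exceeded r = 0.99. *AFF3*, a transcriptional elongation gene, had means of 0.0136 TPM in shEV and 20 TPM in shPAX2. With a pseudocount of 0.1, 3 of the 5 remained among the first 5. The genes most like *EVA1A* were *DHRS2*, *PRICKLE3*, *LRP4*, *SND1* and *NTAN1*, and 0 of the 5 remained with the other pseudocount.

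For *ROBO1* the nearest patterns were *ALDH1L2*, *RASSF4*, *NAB1*, *MYO18A* and *PCDHGB7*, with 4 of 5 shared between pseudocounts. For *ROBO3* they were *ARF5*, *ZNF503-AS2*, *PRPH*, *CCNL2* and *APLP1*, and for *SRGAP1* they were *ARHGEF3*, *RALGDS*, *TSGA13*, *GPI* and *PLXNA1*, a receptor from the list above. *EVA1B*, whose groups overlapped, was most like *ASTE1*, *SNORD57*, *PVRL2*, *EIF2AK2* and *FLII*, and only 1 gene exceeded r = 0.99 with it.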

How the data were processed

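Stranded total RNA libraries of AN3CA cells were sequenced, 3 shEV and 3 shPAX2. The authors deposited TPM values for 17471 genes, scaled by gene length and library total, and each library sums to the same total. The submitters' processing notes name bcl2fastq, STAR, Subread, featureCounts, edgeR and hg19. These notes give no roles, featureCounts is a read counter, and the study's methods describe STAR and RSEM for another cell line, so which counter made the AN3CA values was not settled. Between libraries the TPM of each gene stood in ratios of whole numbers (largest relative deviation 7.15e-14), from which whole reads and gene lengths were recovered; for *SLIT2*, only up to a common factor.

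Genes at 0.5 TPM or more in at least 3 libraries were tested with limma 3.58.1 in R 4.3.3 (lmFit and eBayes, trend and robust options on). The fit used log2(TPM + 0.5) with no covariate, was two-sided and set shPAX2 against shEV, with Benjamini-Hochberg adjustment over the 13163 genes tested. All adjusted p-values are from that fit unless another setting is named. Fold changes understate low genes. Read intervals are exact and cover counting error only, since reads carry no molecular identifiers. The recovery and the fit were tested on simulated data. Positions came from GENCODE on GRCh37, with 94.3% of listed genes matched by name. The windows of 250 bases shown came from GRCh37.

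The members and lists were chosen with earlier results of these data known. Genes named from lists were up to 3 in each direction past the threshold, plus those said to be named later. Alternatives were other pseudocounts, filters, scalings, limma's voom on reads, a replicate block and leaving out each library.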

Additional observations from a re-analysis of the deposited data

How the results depend on the processing

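Leaving out each library in turn kept the direction and the side of the threshold of *PAX2* and of every tested member. With no fold threshold the calls were 5629 over all genes, 4 among the members without *EVA1C*, 5 among other ligands and receptors, 14 among effectors, 7 among heparan sulfate core proteins, 3 among the enzymes and 8 among genes flanking *EVA1C*, since that threshold removes small changes. With a pseudocount of 1 or a filter at 1 TPM, 0 enzymes and 1 flanking gene were past the threshold. Quantile normalization turned *EVA1B* to 0.019 (adjusted p = 0.953) and took *ROBO3* (adjusted p = 0.101) and *SRGAP1* (adjusted p = 0.0713) out of the calls at 0.05; the cause was not tested. *PAX2* ran from −1.87 to −1.2 and *ROBO1* from −0.49 to −0.36 over 15 alternatives, each with an adjusted p under the limit. Lower genes were 68.6% of all calls past the threshold, 60.7% under median-of-ratios scaling, 55% under quantile normalization (240 higher, 293 lower) and 73% by voom.

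Same-numbered libraries of the groups did not deviate together (r of −0.0523, 0.0815 and 0.0014), so the numbers do not pair the samples. With the replicate number as a block, 588 of all genes and 1 of the members were past the threshold, and the block kept every call of a member and took *SRGAP3*, *ABL1* and *SCAF4* across the adjusted p limit. Depth limits *SLIT1*, at 8 to 27 reads per library, and more so *SLIT2*, *SLIT3*, the shEV level of *EVA1C* and the shPAX2 level of *EVA1A*, at 8 reads or fewer.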
